A study of Gallus gallus with 6 samples.

Results

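The cytosolic ribosomal protein genes were taken as every gene whose symbol begins with RPL or RPS and a number, leaving out the S6 kinases (RPS6K symbols) and RPS19BP1. The rule used symbols and no measured value. It found 68 of the 18239 genes in the table, 41 of the large subunit (RPL) and 27 of the small subunit (RPS), after 9 RPS6K genes and RPS19BP1 were removed from 78 matching symbols. In the authors' annotation 67 of the 68 carried the pathway term Ribosome, RPL7L1 being the one without it. Of 79 usual ribosomal protein symbols 65 were found, and the other 14, RPL26 and RPL39 among them, were not analysed here.

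RNA was sequenced from 3 libraries of soleus, a leg muscle, and 3 libraries of pectoralis major, the breast muscle, of broiler chickens (Gallus gallus) aged 180 days. All 6 libraries shared breed and age, and no treatment or genotype separated them. The comparison of soleus with pectoralis major asks how muscles of very different fibre composition differ in their RNA. Whether each library represents a different bird is not stated in the labels. The p-values therefore reflect the spread among these 6 libraries alone, which may be technical.

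Ribosomes are built from ribosomal RNA and one copy each of most ribosomal proteins, joined in a large subunit, which forms peptide bonds, and a small subunit, which reads the mRNA. Ribosomal protein mRNAs carry a terminal oligopyrimidine (TOP) tract at the 5′ end, and mTORC1 raises their translation as a group. A few ribosomal proteins have paralogues that can take their place; in mice and humans RPL3L, the paralogue of RPL3, is largely restricted to heart and skeletal muscle.

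Values are FPKM, fragments scaled for gene length and library size, as the authors deposited them. Library totals worked out from the steps between FPKM values were 38534335 to 39079981 fragments in soleus and 36309597 to 37123092 fragments in pectoralis major. Mitochondrially encoded genes took 31.4 to 38.0% of the summed FPKM in soleus and 13.1 to 15.8% in pectoralis major (the FPKM of other genes is relative to a total that includes them). Summed FPKM of slow fibre markers was 10860 to 14326 in soleus and 22.7 to 27.1 in pectoralis major, with MYL2 listed at 0 in every pectoralis major library, and the muscles matched their labels in this respect. These are bulk samples, in which fewer cells of a type and less RNA per cell cannot be told apart.

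All 68 genes passed the filter on low values (at least 1 FPKM in at least 3 libraries, passed by 9616 genes), and by mean FPKM 67 of them lay in the top 10% of the tested genes. Single values ran between 23.0 and 2317 FPKM, and 63 genes exceeded 100 FPKM in every library. Counting error was small at this level, with 1079 to 77960 fragments behind each value. Together the 68 genes summed to 49670, 61151 and 50776 FPKM in soleus, against 37452, 42922 and 44481 FPKM in pectoralis major. All 3 soleus sums lay above all 3 pectoralis major sums. As a share of all FPKM they took 7.86, 9.24 and 7.73% in soleus and 6.27, 7.37 and 7.58% in pectoralis major, so that the shares of the muscles lay close at their nearest libraries. With the mitochondrially encoded genes left out of the total, the shares were 11.8, 13.5 and 12.5% in soleus and 7.44, 8.48 and 8.94% in pectoralis major. The order of the genes by level was much alike in the muscles, with a Spearman coefficient of 0.94 across the 68 genes, which share libraries and are not independent.

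Gene by gene, 37 of the 68 genes were higher in soleus and 3 were lower, by limma on log2(FPKM + 1) with Benjamini-Hochberg adjustment over all 9616 tested genes and a threshold of 0.05. Of all tested genes, 40.0% were higher in soleus and 17.4% lower, beside 54.4% and 4.41% of the ribosomal protein genes. The median log2 difference of the 68 genes was 0.41, against 0.26 over all tested genes. Among the 530 tested genes with a mean of at least 100 FPKM, 39.1% were higher and 29.2% lower in soleus, with a median of 0.22. In 47 of the 68 genes every soleus library lay above every pectoralis major library, and in 5 every soleus library lay below; over all tested genes these arrangements made up 45.0% and 19.9%. The subunits gave similar figures, with 23 of 41 large subunit genes higher, 1 lower and a median of 0.47, and 14 of 27 small subunit genes higher, 2 lower and a median of 0.40.

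**Figure D1:**
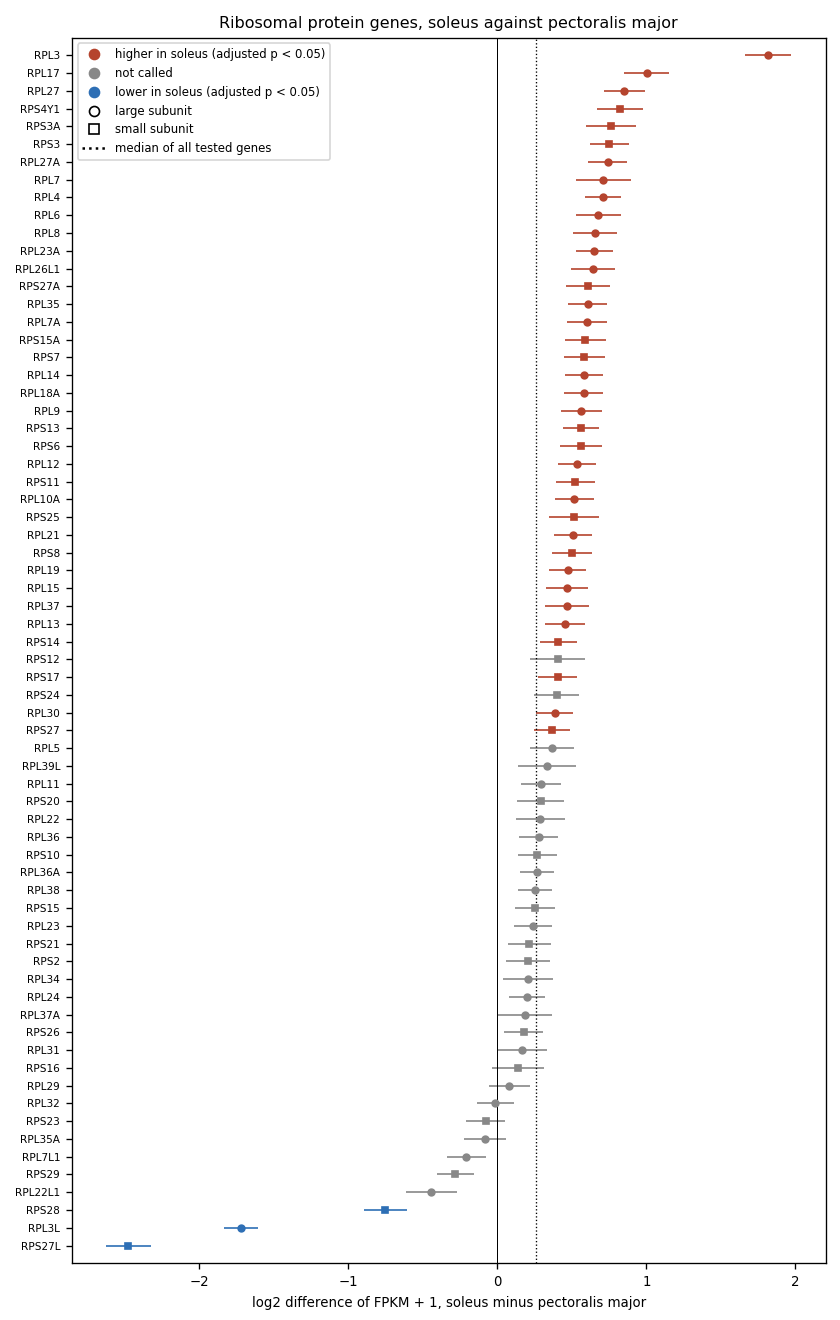
Log2 difference of FPKM + 1 (soleus minus pectoralis major, x axis) of each of the 68 genes, with bars of 1 standard error; circles are large subunit genes, squares small subunit genes, red is higher in soleus, blue lower and grey not called. Most genes lie between 0 and 0.85, RPL3 stands alone at 1.82, and RPS28, RPL3L and RPS27L are the 3 called lower.

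The count of higher genes rested on how the libraries were scaled. With median-ratio scaling, which sets the middle of all genes level between libraries, 3 of the 68 were higher and 9 lower and their median difference was 0.019, against 21.1% higher and 29.5% lower and a median of -0.043 over all tested genes. With totals that left out the mitochondrially encoded genes, 55 were higher and 3 lower, with a median of 0.63 against 0.43 over all tested genes. Quantile normalization gave 21 higher and 6 lower, and voom on the recovered whole fragments gave 8 higher and 7 lower. Totals without the 50 most abundant genes gave 33 higher and 5 lower, against 35.9% and 20.2% of all tested genes. Of all tested genes, 23.3% were higher and 23.8% lower with quantile normalization, and 25.4% and 26.1% with voom. Without the mitochondrially encoded genes these shares were 52.4% and 12.0%. With FPKM as deposited the 68 genes had a larger share called higher than all tested genes. The same held with quantile normalization and with totals that left out the mitochondrially encoded or the 50 most abundant genes. With median-ratio scaling and with voom, their shares called higher and called lower were both smaller than those of all tested genes. Of the 68 genes, 6 were called in the same direction under every one of the 18 settings run. The share of all tested genes called in every setting was not worked out, so this count only describes the 68 genes. RPL3, RPL17 and RPL27 were higher in soleus, and RPS28, RPL3L and RPS27L were lower.

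**Figure D2:**
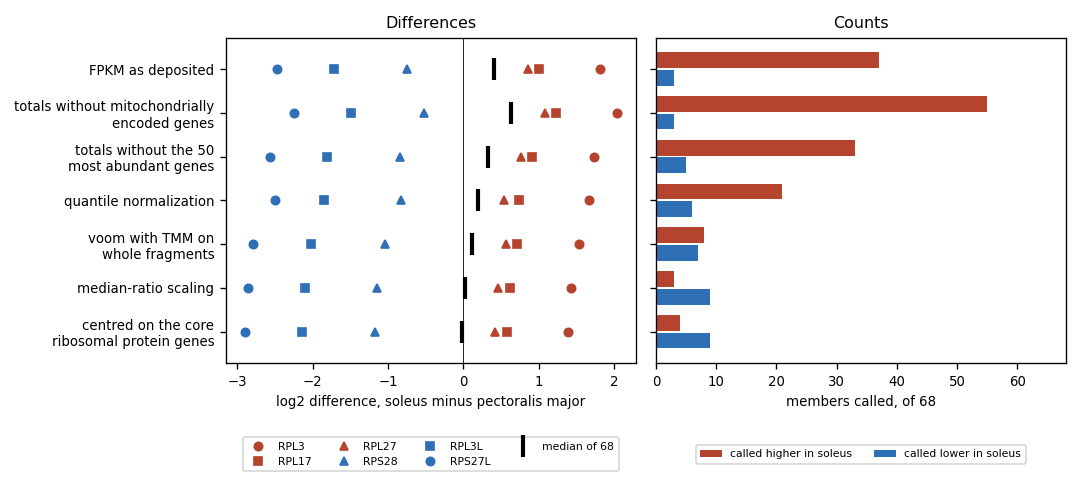
Left, log2 differences (soleus minus pectoralis major) of the 6 genes called in all settings and the median of the 68 genes (black bars) under 7 scalings of the libraries; right, how many of the 68 genes were called higher (red) or lower (blue) under each. The 6 genes keep their side of 0 throughout, which follows from how they were chosen. The median moves between -0.020 and 0.63 and the count of higher genes between 3 and 55. The -0.020 comes from centring on the mean of 62 of these genes, which holds their median near 0 by construction.

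RPL3 and its paralogue RPL3L had opposite patterns. RPL3 (gene 418016), a large subunit protein close to the peptidyl transferase centre, had 507.2, 609.2 and 439.8 FPKM in soleus, against 133.3, 136.8 and 168.4 FPKM in pectoralis major. The lowest soleus value was above the highest pectoralis major value, and RPL3 had the largest positive difference of the 68 genes. Its means were 518.7 ± 85.3 FPKM in soleus and 146.1 ± 19.3 FPKM in pectoralis major (SD, n = 3 each), a 3.55-fold ratio and a log2 difference of 1.82 ± 0.16 (SE, adjusted p = 5.12e-05, limma). Over the 18 settings this difference ran between 1.39 and 2.04.

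RPL3L (gene 416542) had 98.4, 99.1 and 109.6 FPKM in soleus, against 319.9, 356.0 and 342.6 FPKM in pectoralis major. The muscles did not overlap, and the libraries within each muscle were close. RPL3L averaged 102.4 ± 6.31 FPKM in soleus and 339.5 ± 18.3 FPKM in pectoralis major (SD, n = 3 each), with a log2 difference of -1.72 ± 0.11 (SE, adjusted p = 1.18e-05, limma), 3.32-fold higher in pectoralis major. RPL3L took 16.2, 14.0 and 20.0% of the summed FPKM of RPL3 and RPL3L in soleus, against 70.6, 72.2 and 67.0% in pectoralis major. RPL3 was thus the major form in all 3 soleus libraries and RPL3L the major form in all 3 pectoralis major libraries. The log2 ratio of RPL3L over RPL3, which library scaling leaves unmoved apart from the pseudocount of 1, was -2.32 ± 0.31 in soleus and 1.22 ± 0.18 in pectoralis major (SD, n = 3 each), a difference of -3.54. The exact two-sided permutation test gave p = 0.1, the smallest that 3 against 3 libraries allow, and 0.1 after adjustment over the 4 paralogue pairs. Exchanging the muscles only between same-numbered libraries gave p = 0.25 for each of the 4 pairs (exact, two-sided), the smallest that 3 libraries a muscle allow in that design. The pair summed to 621.1 ± 80.5 FPKM in soleus and 485.7 ± 29.6 FPKM in pectoralis major (SD, n = 3 each). How the authors' counting treated reads that fit both paralogues is not given in the sources used here, so the split within each pair is uncertain to that extent.

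RPS27L differed more than any other of the 68 genes. This gene (415372) is the paralogue of RPS27, a zinc finger protein of the small subunit, and in human cells it is induced by p53. It had 49.5, 51.1 and 43.3 FPKM in soleus, against 267.0, 230.6 and 322.2 FPKM in pectoralis major. The groups were far apart, with means of 48.0 ± 4.14 FPKM in soleus and 273.3 ± 46.2 FPKM in pectoralis major (SD, n = 3 each). The log2 difference was -2.48 ± 0.15 (SE, adjusted p = 7.72e-06, limma) and ran between -2.90 and -2.25 over the 18 settings. Of all tested genes, 5.5% were at least 2-fold lower and called, a group that held RPS27L and RPL3L of the 68, and 9.44% were at least 2-fold higher and called, a group that held RPL3 and RPL17.

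RPS27 (gene 107055140) itself had 641.6, 737.8 and 649.7 FPKM in soleus, against 510.3, 494.5 and 568.3 FPKM in pectoralis major. Every soleus library was above every pectoralis major library, by little. The log2 difference was 0.37 ± 0.12 (SE, adjusted p = 0.028, limma), and the call was lost without soleus 2 (adjusted p = 0.0854), soleus 3 (0.0535), pectoralis major 1 (0.068) or pectoralis major 2 (0.0848). With median-ratio scaling the difference was -0.022. RPS27L made up 7.17, 6.47 and 6.24% of the pair's FPKM in soleus, against 34.3, 31.8 and 36.2% in pectoralis major. In both muscles RPS27 remained the major form, and the ratio of RPS27L to RPS27 was 7.17-fold higher in pectoralis major (log2 difference -2.84, exact permutation p = 0.1, 0.1 adjusted over the 4 pairs). The pair summed to 724.3 ± 55.9 FPKM in soleus and 797.6 ± 84.6 FPKM in pectoralis major (SD, n = 3 each).

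**Figure D3:**
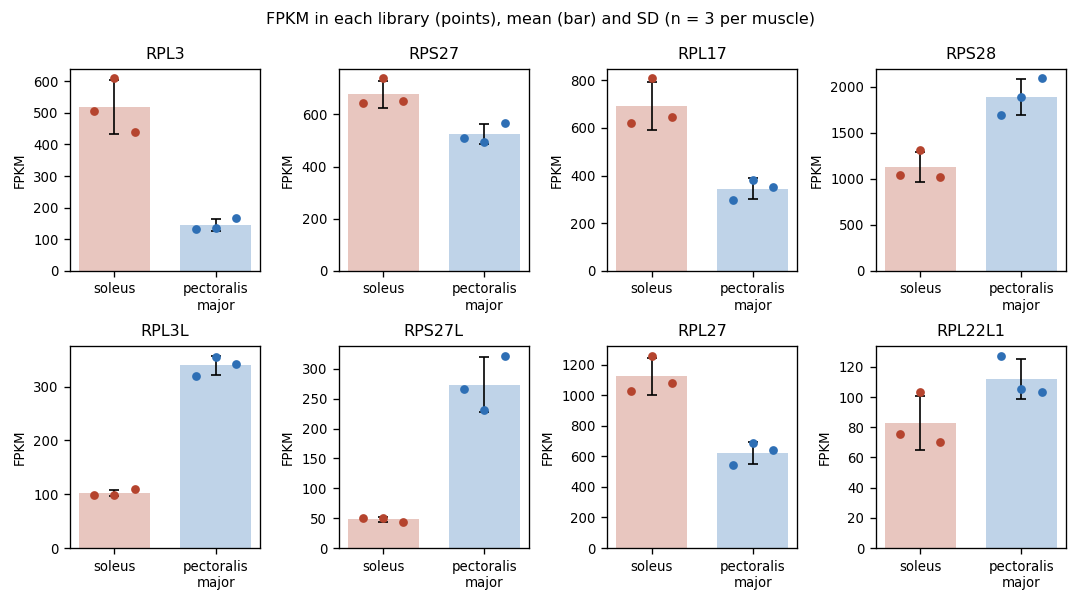
FPKM of 8 genes in each library (points), with the mean (bar, from 0) and SD for 3 soleus (left, red) and 3 pectoralis major (right, blue) libraries. RPL3 and RPL3L, and RPS27 and RPS27L, stand one above the other as pairs; RPL3L and RPS27L are lower in soleus while RPL3 and RPS27 are higher.

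Among the remaining paralogues the differences were smaller. RPL22L1 (gene 100858296), whose parent RPL22 binds RNA and can be replaced by it in mice, had 75.5, 103.4 and 70.1 FPKM in soleus, against 127.5, 105.3 and 103.5 FPKM in pectoralis major. The values did not overlap, though soleus 2 came close to the lowest pectoralis major library. The log2 difference of -0.44 ± 0.17 (SE) missed the threshold in limma (adjusted p = 0.0512) and passed it with the replicate number as a block (0.0243) and without soleus 2 (-0.61, 0.0135). The labels do not say that the numbers mark a pair. That pairing was taken from same-numbered libraries deviating together in these same data, so calls with the block, here and below, are no separate support. RPL22 averaged 237.9 ± 54.5 FPKM in soleus and 191.5 ± 8.78 FPKM in pectoralis major (SD, n = 3 each), and its difference of 0.29 was not called (adjusted p = 0.159, limma). RPL22L1 made up 25.9 ± 0.535% of the pair in soleus and 36.9 ± 3.36% in pectoralis major (SD, n = 3 each), a 1.66-fold higher ratio in pectoralis major (exact permutation p = 0.1, adjusted over the pairs 0.1).

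RPL7L1, a relative of RPL7 whose yeast counterpart acts in making the large subunit, was the least abundant of the 68 genes. It had 27.0, 23.0 and 23.7 FPKM in soleus, against 31.1, 25.8 and 28.7 FPKM in pectoralis major, with overlap and no call (log2 difference -0.21 ± 0.13 SE, adjusted p = 0.199, limma). RPL7, a large subunit protein, averaged 1114 ± 206 FPKM in soleus and 681.1 ± 125 FPKM in pectoralis major (SD, n = 3 each) and was higher by 0.71 on the log2 scale (adjusted p = 0.011, limma), a call lost with median-ratio scaling (0.32, adjusted p = 0.195). The ratio of RPL7L1 to RPL7 was 1.89-fold higher in pectoralis major (exact permutation p = 0.1, adjusted 0.1). In each of the 4 pairs, then, the ratio of paralogue to parent was lower in all 3 soleus libraries than in all 3 pectoralis major libraries. How often other gene pairs are so arranged was not worked out. RPL7L1 and RPL22L1 were themselves not called, and RPL7 was higher in soleus. The paralogues without an analysed parent, RPL26L1 (0.64) and RPL39L (0.33), had positive differences.

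For RPL26L1 and RPL39L no parent was analysed, so no ratio is given. The symbols RPL26 and RPL39 were not found. Whether RPL26L1 and RPL39L stand in their place in this chicken annotation was not tested. RPL26L1 (gene 396400), whose symbol names a close copy of RPL26, had 406.9, 513.0 and 408.4 FPKM in soleus, against 249.0, 319.0 and 280.9 FPKM in pectoralis major. It was the one gene with a paralogue symbol to be higher in soleus (log2 difference 0.64 ± 0.15 SE, adjusted p = 0.00583, limma), and with median-ratio scaling it was not called (0.26, adjusted p = 0.192). RPL39L, which in mice and humans is best known from testis, had 738.0, 935.6 and 570.3 FPKM in soleus, against 533.9, 687.4 and 536.9 FPKM in pectoralis major. Its groups overlapped, and the difference of 0.33 was not called (adjusted p = 0.168, limma) but was called with the replicate block (0.0349) and without soleus 3 (0.51, 0.0435).

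RPS28 and RPS29, small proteins of the small subunit, had negative differences as well. RPS28 (gene 768930), which sits near the mRNA exit channel, had 1041, 1312 and 1021 FPKM in soleus, against 1696, 1883 and 2089 FPKM in pectoralis major. All soleus values were below all pectoralis major values, and the gene had the highest mean of the 68 in pectoralis major and ranked 15 in soleus. The log2 difference was -0.75 ± 0.14 (SE, adjusted p = 0.00252, limma), a 1.68-fold higher mean in pectoralis major, and ran between -1.18 and -0.53 over the settings. RPS29 (gene 776054), a zinc-binding protein of the small subunit head, had 1247, 1380 and 1142 FPKM in soleus, against 1396, 1554 and 1632 FPKM in pectoralis major. Its groups did not overlap, by a narrow margin, and its difference of -0.28 ± 0.12 (SE) was not called (adjusted p = 0.0802, limma). It was called lower with median-ratio scaling (-0.67, adjusted p = 0.00328) and with quantile normalization (-0.38, adjusted p = 0.0167). RPS29 ranked 13 by mean FPKM in soleus and 2 in pectoralis major.

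RPL17 and RPL27, which lie in the large subunit, with RPL17 at the mouth of the exit tunnel, were the other genes higher in soleus under every setting. RPL17 (gene 426845) had 619.7, 807.7 and 647.3 FPKM in soleus, against 297.0, 382.9 and 353.6 FPKM in pectoralis major. No library of one muscle reached the other, and the means stood 2.01-fold apart (log2 difference 1.00 ± 0.15 SE, adjusted p = 0.000831, limma; 0.57 to 1.23 over the settings). RPL27 (gene 396280) had 1031, 1260 and 1081 FPKM in soleus, against 542.5, 686.7 and 639.7 FPKM in pectoralis major. It was 1.80-fold higher in soleus (log2 difference 0.85 ± 0.14 SE, adjusted p = 0.00117, limma; 0.43 to 1.08 over the settings), again without overlap.

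The next genes by difference were RPS4Y1, RPS3A, RPS3 and RPL27A, whose groups did not overlap. RPS4Y1 (gene 396001), the chicken gene listed under this S4 family symbol, had 990.1, 1378 and 1160 FPKM in soleus, against 583.7, 657.0 and 739.9 FPKM in pectoralis major, and was higher by 0.83 ± 0.15 (SE, adjusted p = 0.00239, limma). Median-ratio scaling was the one setting of 18 in which its call was lost (0.44, adjusted p = 0.0584). RPS3A (gene 422477), the gene with the highest mean of the 68 in soleus, had 1695, 2317 and 1860 FPKM in soleus, against 947.9, 1295 and 1222 FPKM in pectoralis major. It was higher by 0.76 ± 0.17 (SE, adjusted p = 0.00491, limma; 0.106 with median-ratio scaling) and ranked 6 in pectoralis major. RPS3 (gene 419069), which lines the mRNA entry channel, averaged 656.7 ± 84.4 FPKM in soleus and 388.2 ± 26.4 FPKM in pectoralis major (SD, n = 3 each), higher by 0.75 (adjusted p = 0.00171, limma; 0.0625 with median-ratio scaling). RPL27A averaged 684.3 ± 89.9 FPKM in soleus and 407.5 ± 19.9 FPKM in pectoralis major (SD, n = 3 each), higher by 0.74 (adjusted p = 0.00184, limma; 0.0603 with median-ratio scaling). With the libraries centred on the mean of the 62 genes without a paralogue symbol, which asks what each gene did relative to the other ribosomal protein genes, RPL3 (1.39), RPL17 (0.57), RPL27 (0.43) and RPS4Y1 (0.40) were higher in soleus. Under that centring 9 genes were lower: RPS27L (-2.90), RPL3L (-2.15), RPS28 (-1.18), RPL22L1 (-0.87), RPS29 (-0.71), RPL7L1 (-0.63), RPL35A (-0.51), RPS23 (-0.50) and RPL32 (-0.44). Of all tested genes, 10.6% were higher and 29.1% lower under the same centring.

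The most abundant genes were divided. Of the 5 genes with the highest mean FPKM over all libraries, RPS3A was higher in soleus, RPS28 lower and RPS29, RPS10 and RPL37A not called. RPS10, a small subunit protein near the mRNA entry, averaged 1486 ± 120 FPKM in soleus and 1237 ± 154 FPKM in pectoralis major (SD, n = 3 each), with a log2 difference of 0.27 (adjusted p = 0.115, limma) that was -0.12 with median-ratio scaling. RPL37A, a zinc-binding large subunit protein, averaged 1441 ± 295 FPKM in soleus and 1262 ± 203 FPKM in pectoralis major (SD, n = 3 each), with a log2 difference of 0.19 (adjusted p = 0.398, limma) that was -0.20 with median-ratio scaling. Of genes named here for their known roles after their values were seen, RPS6, the substrate of S6 kinase, averaged 862.9 ± 118 FPKM in soleus and 583.8 ± 62.7 FPKM in pectoralis major (SD, n = 3 each). It was higher by 0.56 (adjusted p = 0.00966, limma; 0.17 and 0.358 with median-ratio scaling). RPL5 and RPL11, which bind 5S ribosomal RNA and MDM2, had differences of 0.37 and 0.29 that were not called (adjusted p = 0.0595 and 0.092, limma) and were -0.023 and -0.096 with median-ratio scaling. RPL5 was called with the replicate block (0.0165) and without pectoralis major 2 (0.45, adjusted p = 0.046). The block also brought calls for RPS24 (0.40, adjusted p = 0.0158; 0.0499 without pectoralis major 2) and RPS12 (0.40, adjusted p = 0.0181), and both were near 0 and negative when centred (-0.029 and -0.023). With the block 41 genes were higher and 4 lower, against 43.8% and 19.5% of all tested genes.

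The ribosomal protein genes moved together from library to library within a muscle. Soleus 2 was the highest soleus library for 65 of the 68 genes, the exceptions being RPL30 and RPL3L (soleus 3) and RPL7L1 (soleus 1), while it was the highest for 27.9% of all tested genes. Pectoralis major 1 was the lowest pectoralis major library for 55 of the 68 genes, and for 48.6% of all tested genes. RPS27L and RPL7L1 were among the 13 exceptions, both lowest in pectoralis major 2. Without both libraries 21 of the 68 genes were higher and 5 lower, against 29.9% and 14.7% of all tested genes, and the median difference was 0.28. Among the soleus libraries, soleus 2 also had the highest summed FPKM of leukocyte markers (1156), adipocyte markers (783.8) and slow fibre markers (14326). It had the lowest of endothelial (214.8) and fibroblast markers (394.4, close to 395.2 in soleus 3). Among the pectoralis major libraries, pectoralis major 1 had the lowest of endothelial (114.3), fibroblast (230.7) and erythrocyte markers (404.3), and the highest of fast fibre markers (61580). Their part in the result was not tested.

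**Figure D4:**
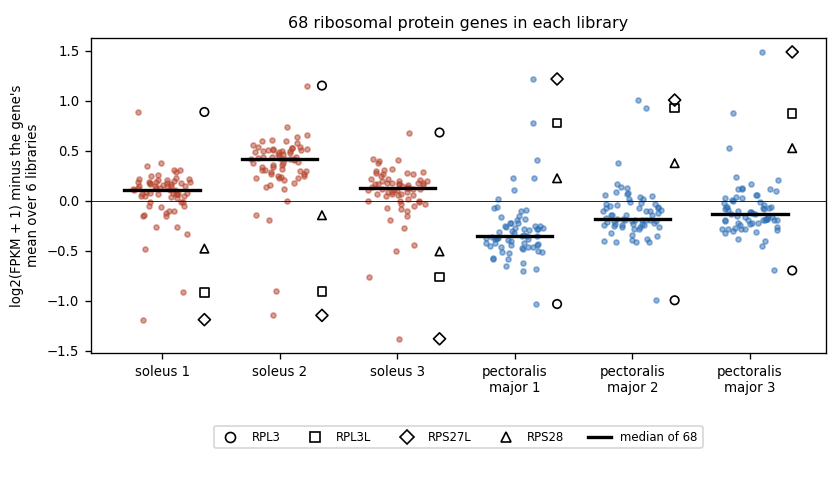
Log2(FPKM + 1) of each of the 68 genes in each library, minus that gene's mean over the 6 libraries (y axis); black bars are medians, and RPL3, RPL3L, RPS27L and RPS28 are shown again as open markers beside each library. The cloud stands highest in soleus 2 and lowest in pectoralis major 1, and the 4 marked genes keep outside it or at its edge.

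Genes outside the symbol rule were read from lists. Of 5 further ribosomal proteins, 2 were higher in soleus and none was lower (3 at an unadjusted p under 0.05, and none in either direction with voom), with a median difference of 0.32. The share higher, 40.0%, equals that of all tested genes. They were RACK1, a scaffold on the small subunit (1149 ± 132 FPKM in soleus, 824.3 ± 103 FPKM in pectoralis major, SD, n = 3 each; 0.48, adjusted p = 0.0183, limma), and the stalk protein RPLP2 (0.43, adjusted p = 0.0117). RACK1 lost its call without soleus 2 (adjusted p = 0.0589) or pectoralis major 1 (0.0602), and both had it lost with median-ratio scaling. The stalk protein RPLP1 was the most abundant, with 1730 ± 140 FPKM in soleus and 1389 ± 122 FPKM in pectoralis major (SD, n = 3 each), and was not called (0.32, adjusted p = 0.052, limma; -0.071 with median-ratio scaling; called with the replicate block, 0.0349, and without pectoralis major 3, 0.0462).

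Most elongation factors, eIF3 subunits and other genes with TOP mRNAs were higher in soleus with FPKM as deposited. Of 23 tested, 15 were higher in soleus (65.2%, against 40.0% of all tested genes), 1 was lower (4.35%, against 17.4%), and the median was 0.54, against 0.26. With median-ratio scaling 7 were higher and 3 lower, with a median of 0.15. The largest differences were those of NAP1L1, a histone chaperone with a TOP mRNA (1.20, adjusted p = 0.001), EIF3H, a subunit of initiation factor 3 (1.12, adjusted p = 0.00275), and EEF1D, an exchange factor of elongation factor 1 (1.04, adjusted p = 0.000977, limma for all). These 3 remained higher with median-ratio scaling. EEF2K, the kinase that inhibits elongation factor 2, was the gene lower in soleus, with 7.83 ± 1.74 FPKM in soleus and 14.8 ± 4.60 FPKM in pectoralis major (SD, n = 3 each; -0.82, adjusted p = 0.0146, limma), a call lost without soleus 3 (0.0524). TPT1, the most abundant TOP gene on the list, averaged 7328 ± 463 FPKM in soleus and 5827 ± 1143 FPKM in pectoralis major (SD, n = 3 each). It was not called (log2 difference 0.35, adjusted p = 0.0869, limma), and its difference was -0.041 with median-ratio scaling. It was called with the replicate block (adjusted p = 0.03, limma) and without pectoralis major 2 (adjusted p = 0.04, limma).

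Initiation factors other than eIF3 showed the opposite balance. Of 24 tested, 2 were higher in soleus (8.33%, against 40.0% of all tested genes) and 12 lower (50.0%, against 17.4%), with a median of -0.32, and with median-ratio scaling none was higher and 21 were lower (1 and 20 with voom). EIF2S2, the beta subunit of eIF2, averaged 20.5 ± 0.534 FPKM in soleus and 59.7 ± 17.1 FPKM in pectoralis major (SD, n = 3 each; -1.47, adjusted p = 0.000368, limma). EIF4G2, an eIF4G relative, was lower by -1.39 (adjusted p = 0.000162) and EIF1B by -1.23 (adjusted p = 7.19e-05, limma). EIF4A2, an RNA helicase and the most abundant of the list, averaged 422.3 ± 43.4 FPKM in soleus and 591.5 ± 64.8 FPKM in pectoralis major (SD, n = 3 each; -0.48, adjusted p = 0.0141, limma), and lost its call without soleus 3 (0.0544). The gamma subunit gene EIF2S3 (0.83, adjusted p = 0.00754) and the helicase gene EIF4A3 (0.49, adjusted p = 0.0109, limma) were higher, and neither was called with median-ratio scaling. EIF4A3 was counted here by its symbol, not by a known role in initiation.

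The genes that build ribosomes did not share one direction. Of 52 tested biogenesis genes, 9 were higher in soleus (17.3%, against 40.0% of all tested genes) and 14 lower (26.9%, against 17.4%), with a median of -0.019; with median-ratio scaling 1 was higher and 22 were lower. GNL2, a nucleolar GTPase (1.11, adjusted p = 0.000386), the nucleolar chaperone NPM1 (0.90, adjusted p = 0.00482) and WDR12 of the large subunit processing complex (0.65, adjusted p = 0.00865) were higher. The nucleolar protein genes NOLC1 (-1.14, adjusted p = 0.000185), PNO1 (-1.08, adjusted p = 0.00549) and NPM3 (-1.01, adjusted p = 0.000836, limma for all 6) were lower. NPM1 and WDR12 were not called with median-ratio scaling, and the other 4 were. Of 12 genes of RNA polymerase I and its factors, which make ribosomal RNA, 4 were higher (33.3%) and 1 lower (8.33%), shares below the 40.0% and 17.4% of all tested genes, with a median of 0.24 against 0.26. With median-ratio scaling none was higher and 2 were lower (1 lower and none higher with voom). TAF1D (0.68, adjusted p = 0.0212), POLR1C (0.41, adjusted p = 0.0173) and RRN3 (0.38, adjusted p = 0.0416) were higher, and TWISTNB was lower (-0.49, adjusted p = 0.0465, limma for all 4). Each of these 4 lost its call when single libraries were left out: TAF1D without soleus 2 (0.0702) or pectoralis major 3 (0.068), POLR1C without soleus 3 (0.0698), RRN3 without soleus 1 (0.113), soleus 3 (0.13), pectoralis major 2 (0.115) or pectoralis major 3 (0.0678), and TWISTNB without any one library except pectoralis major 1 (0.0644 to 0.141). POLR1E, the most abundant, averaged 8.94 ± 1.09 FPKM in soleus and 10.1 ± 1.36 FPKM in pectoralis major (SD, n = 3 each) and was not called (-0.15, adjusted p = 0.393, limma).

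Genes of mTORC1, the S6 kinases with their relatives, and MYC control were called in both directions, at shares not far from those of all tested genes. Of 24 tested, 7 were higher in soleus (29.2%, against 40.0%) and 6 lower (25.0%, against 17.4%), with a median of 0.22 against 0.26. With median-ratio scaling 3 were higher and 9 lower, where 21.1% and 29.5% of all tested genes were. The kinase genes RPS6KA1 (1.26, adjusted p = 9.50e-05) and RPS6KA5 (0.73, adjusted p = 0.00179), which encode relatives of the S6 kinases, and TSC1, an inhibitor of mTORC1 (0.62, adjusted p = 0.00346), were higher. The S6 kinase gene RPS6KB2 averaged 12.8 ± 1.17 FPKM in soleus and 27.6 ± 1.18 FPKM in pectoralis major (SD, n = 3 each; -1.06, adjusted p = 0.000224). MLST8, a subunit of mTOR complexes (-0.99, adjusted p = 0.000485), and DEPTOR, an inhibitor of them (-0.99, adjusted p = 0.000175, limma for all 6), were lower too. All 6 kept their direction and call with median-ratio scaling. EIF4EBP1, the repressor of cap-dependent initiation that mTORC1 phosphorylates, averaged 203.1 ± 20.8 FPKM in soleus and 227.6 ± 34.8 FPKM in pectoralis major (SD, n = 3 each) and was not called (-0.16, adjusted p = 0.39, limma; -0.54 and 0.0141 with median-ratio scaling).

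**Figure D5:**
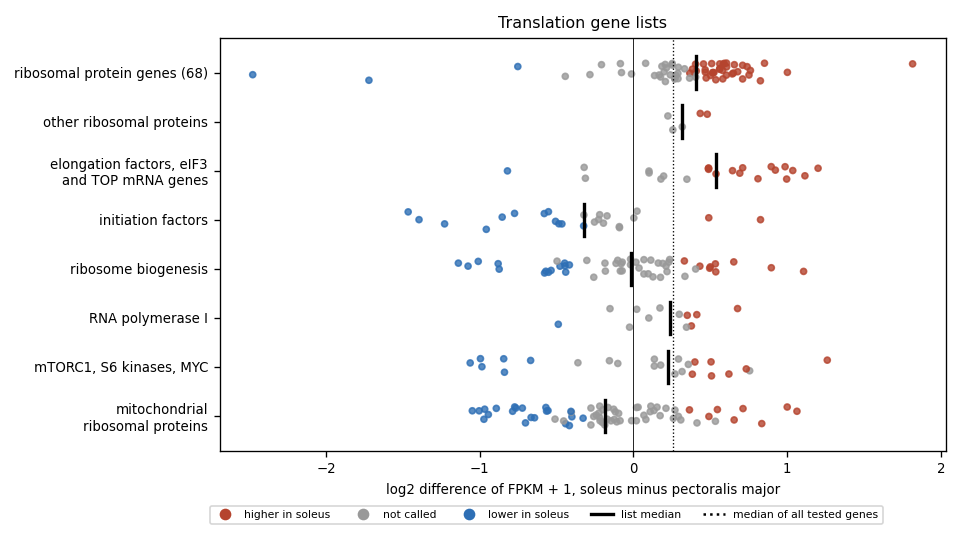
Log2 difference of FPKM + 1 (soleus minus pectoralis major, x axis) of each tested gene of 8 lists, with list medians (black bars) and the median of all tested genes (dotted line, 0.26); red is higher in soleus, blue lower, grey not called. Ribosomal protein genes (median 0.41) and elongation and TOP mRNA genes (0.54) lie to the right, initiation factors (-0.32) and mitochondrial ribosomal proteins (-0.19) to the left.

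Many markers of other cell types were also called between the muscles, where 40.0% of all tested genes were higher in soleus and 17.4% lower. All 10 endothelial markers were higher in soleus, with summed FPKM of 214.8 to 254.9 in soleus and 114.3 to 130.0 in pectoralis major. Of 11 leukocyte markers 9 were higher (1057 to 1156 in soleus, 544.2 to 708.4 in pectoralis major), of 10 fibroblast markers 6 (394.4 to 482.0 in soleus, 230.7 to 445.6 in pectoralis major) and of 8 adipocyte markers 8 (580.5 to 783.8 in soleus, 126.9 to 137.6 in pectoralis major). Of 4 tested erythrocyte markers none was called by limma, none had an unadjusted p under 0.05 and none was called with voom. With the replicate block 2 were higher. The summed FPKM of 6 erythrocyte genes was 426.3 to 1036 in soleus and 404.3 to 811.1 in pectoralis major. HBZ, which was not tested, was at 0 in every pectoralis major library and at 0, 0 and 0.041 FPKM in soleus. All 7 tested slow fibre markers were higher, and of 11 fast fibre markers 5 were higher and 4 lower (24812 to 32144 in soleus, 54736 to 61580 in pectoralis major). With median-ratio scaling 5 of the 10 endothelial, 7 of the 11 leukocyte, 2 of the 10 fibroblast and 8 of the 8 adipocyte markers were higher. Of all tested genes 21.1% were higher and 29.5% lower with that scaling, so the fibroblast share was near that of all tested genes. The part of these cell types in the ribosomal protein differences was not tested.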

How the data were processed

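Libraries were made from total RNA of soleus and pectoralis major of broiler chickens, 3 libraries each. The submitters' processing notes list HISAT2, HTSeq, Cufflinks and R 3.2.0 and the build GRCg6a. Not given in the sources used here were further versions, strand use and the handling of multiply mapped reads. Per the file headers, the authors deposited FPKM for the 6 libraries as one annotated table. Within a library the FPKM of a gene moves in steps of 1 fragment, and 100.0% of 94897 values above 0 came out whole within a relative tolerance of 1e-06, which gave library totals, gene lengths and fragments per gene. One fragment of a gene of 1 kb is worth 0.0256 to 0.0275 FPKM. The gene numbers of all 68 genes were found in RefSeq (assembly GRCg7b). Coordinates are left out because the authors' build is another one. Gene numbers served to restore 10 symbols that had been turned into dates.

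Genes with at least 1 FPKM in at least 3 libraries (9616 of 18239) were tested on log2(FPKM + 1), soleus minus pectoralis major, with limma 3.58.1 in R 4.3.3 (variance trend, two-sided, Benjamini-Hochberg over all tested genes, threshold 0.05). The steps were run on simulated data in which each gene varied independently. The ribosomal protein genes moved together between libraries here, so that run does not show how such shared shifts affect the calls. Alternatives were a pseudocount of 0.1, no filter, a mean of at least 5 FPKM, median-ratio, quantile and mean-centred scaling, totals without mitochondrially encoded genes or the 50 most abundant genes, limma's voom with trimmed-mean scaling on whole fragments, a replicate block and leaving out each library. Leaving out soleus 2 and pectoralis major 1 together was chosen after seeing the data. Same-numbered libraries deviated together from their muscle means (correlations 0.40, 0.45 and 0.37 across tested genes). All differently numbered pairs were below 0, which is no separate support, because deviations from a muscle mean sum to 0. From the 3 same-numbered correlations, the numbers in the titles were taken to pair the libraries in the replicate block. The main limma test did not use this pairing. The ribosomal protein genes, the lists and the rule for named genes were chosen with earlier results of these data known. That rule names the 8 called genes of largest difference in each direction, called genes with a log2 difference of at least 1, the 5 of highest mean, paralogues with their parents, and, per list, up to 3 called genes in each direction and the most abundant. Other genes named were chosen after their values were seen. Ratios of paralogue to parent were compared by exact permutation. A fold change on this scale understates differences of low genes.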

Additional observations from a re-analysis of the deposited data

How the results depend on the processing

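The count of ribosomal protein genes higher in soleus, 37 in the report, was 3 with median-ratio scaling, 21 with quantile normalization, 4 when centred on 62 of the genes, 8 with voom and 21 without soleus 2 and pectoralis major 1 together. The count lower, 3, was 9, 6, 9, 7 and 5 in the same order and 5 with totals without the 50 most abundant genes. Their median difference, 0.41, was 0.019, 0.19, -0.020, 0.12 and 0.28 in that order, and 0.63 without mitochondrially encoded genes. Centring sets the mean of those 62 genes level between libraries. Its median near 0 is therefore built in, and its counts and reversals are relative to the ribosomal protein genes themselves. Leaving out single libraries gave 29 to 37 higher, 3 to 4 lower and medians of 0.33 to 0.48. The shares of all tested genes called in those fits are not given here, so these counts have no background beside them. The replicate block gave 41 higher and 4 lower, a median of 0.41, and changed no call among the named members apart from RPL22L1, RPL39L, RPL5, RPS24 and RPS12. Over all tested genes, 3844 higher and 1670 lower became 2026 and 2837 with median-ratio scaling, 2244 and 2285 with quantile normalization, 1016 and 2801 when centred and 2445 and 2510 with voom. The number of all tested genes called higher in soleus was 1639 among genes with a mean of at least 5 FPKM. That stricter filter tested fewer genes, a number not given here, so 1639 is not comparable with 3844. Differences reversed for RPS10 (-0.12 median-ratio, -0.16 centred, -0.019 voom), RPL37A (-0.20, -0.24, -0.10, and -0.12 without the 2 libraries), RPL39L (-0.056, -0.095), RPL22 (-0.10, -0.14), RPS27 (-0.022, -0.061), RPL5 (-0.023, -0.062), RPL11 (-0.096, -0.13, and -0.073 with quantile normalization), RPLP1 (-0.071, -0.11), TPT1 (-0.041, -0.079) and HBA1 (-0.10, -0.14, and -0.15 without the 2 libraries), and when centred for RPS24 (-0.029), RPS12 (-0.023), POLR1C (-0.015) and RRN3 (-0.050). Without mitochondrially encoded genes they reversed for RPL7L1 (0.0083), RPL35A (0.14), RPS23 (0.15), RPL32 (0.21), POLR1E (0.050; 0.017 without the 2 libraries) and EIF4EBP1 (0.067). Leaving out single libraries reversed RPL35A without soleus 1 (range -0.21 to 0.025) and RPL32 without soleus 1, soleus 3 or pectoralis major 3 (range -0.097 to 0.057). The cause of these changes was not tested. The 3 libraries a muscle allow no exact p below 0.1, or 0.25 when paired by number, and FPKM fixes no absolute RNA amount.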

Other observations

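Ribosomal proteins of the mitochondrion, which are encoded in the nucleus and form a separate ribosome, had another balance. Of 71 such genes 8 were higher in soleus (11.3%, against 40.0% of all tested genes) and 21 lower (29.6%, against 17.4%) by limma, with a median log2 difference of -0.19. With median-ratio scaling 1 was higher and 44 were lower, and with voom 3 and 38. Their summed FPKM was 3259, 3673 and 3263 in soleus and 3912, 4180 and 4072 in pectoralis major, without overlap.

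Gene length, worked out from the FPKM steps, ran with the differences among the 62 cytosolic genes without a paralogue symbol. Of 15 genes under 500 bases, a limit chosen after seeing the values, 4 were higher in soleus and 1 lower, with a median of 0.25 (with voom 0 were higher and 2 lower, and 6 had an unadjusted p under 0.05). Of the 47 longer genes 32 were higher and 0 lower (34 at an unadjusted p under 0.05; with voom 8 were higher and 1 lower), with a median of 0.52. Over all tested genes 40.0% were higher and 17.4% lower, and with voom 25.4% and 26.1%. With median-ratio scaling 0 of the 15 were higher and 2 lower, and of the 47, 3 were higher and 3 lower. All tested genes had 21.1% higher and 29.5% lower with that scaling. Medians were then -0.14 for the 15 and 0.13 for the 47, against -0.043. With voom and median-ratio scaling the share of the 47 called higher was below that of all tested genes. As a description, Spearman's coefficient of length and difference was 0.43 over the 62 genes, 0.11 over all 9616 tested genes and -0.12 over tested genes with a mean of at least 100 FPKM. The genes share libraries, so no p is given.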
